A study of Mus musculus with 2 samples.

Results

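The regions described here are 500-bp stretches of the mouse autosomes with few analysed CpG cytosines, at which nearly every read call was methylated. Each autosome was cut into 500-bp bins, and a bin's methylation level is the sum of methylated calls at its analysed cytosines as a percent of all their C and T calls. An analysed cytosine has at least 10 reads in both libraries. Bins with 5 to 14 analysed cytosines are called CpG-poor here, a name that counts analysed cytosines and not all CpGs of the bin. The members are those CpG-poor bins whose level, averaged over the 2 libraries, was at least 90%. They were thus selected on the measured level of both libraries. There were 15801 members among 111938 CpG-poor bins (14.1%) and 149544 autosomal bins with 5 or more analysed cytosines.

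The series holds 2 libraries of hippocampal DNA from C57BL/6 mice, 1 from an untreated control and 1 from offspring given 5000 ppb arsenic trioxide (ATO) in drinking water, with dosing from before mating through lactation and of the offspring after weaning. The question behind the series is whether such exposure alters methylation in this tissue. Neither the age or sex of the animals nor whether a library is 1 animal or a pool is given in the sources used here. DNA was captured with the SureSelectXT mouse Methyl-Seq kit, treated with bisulfite and sequenced, so the tables cover mainly the captured part of the genome and mostly 1 strand.

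In mammalian somatic cells CpG methylation is the default state of most of the genome. DNMT1, with its partner UHRF1, copies it to the new strand after replication, the de novo enzymes DNMT3A and DNMT3B add it, and TET enzymes oxidise it. CpG islands, which are dense in CpG, are mostly kept free of it, while isolated CpGs between islands are mostly methylated. Bisulfite deaminates unmethylated cytosine, so that it is sequenced as T, and leaves 5-methylcytosine and 5-hydroxymethylcytosine as C. The latter form is abundant in neurons and is counted here as methylated.

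In DNA this full of methylation the part that varies is the small unmethylated share, 100 minus the level, and it is the quantity followed below. T calls from read errors or misplaced reads are included in it and were not separated. The libraries differed in number of calls, with 6573556 in the control library and 7151898 in the ATO library over the members, and the median bin had 47.9 and 51.7 reads per cytosine. The members held 117588 analysed cytosines of 111344 CpGs, 87.1% of them on the reverse strand. No group has a replicate, and the rule used the same levels that are compared below, so every value is a description of these 2 libraries and no test is given. Intervals are exact 95% intervals that cover counting error only. Calls on the same read are not independent, which makes them too narrow.

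Over all members 5.93% of calls were unmethylated in the control library (interval 5.91 to 5.95) and 6.66% in the ATO library (6.65 to 6.68). The difference was 0.74 percentage points, and the ratio of the ATO share to the control share was 1.12 (1.12 to 1.13). The median bin had a share of 5.63% in the control library and 6.42% in the ATO library. From the 5th to the 95th percentile of bins, shares ran from 1.51 to 10.4% in the control and from 1.76 to 11.6% in the ATO library, so the bins of the 2 libraries overlapped over nearly their whole range.

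**Figure D1:**
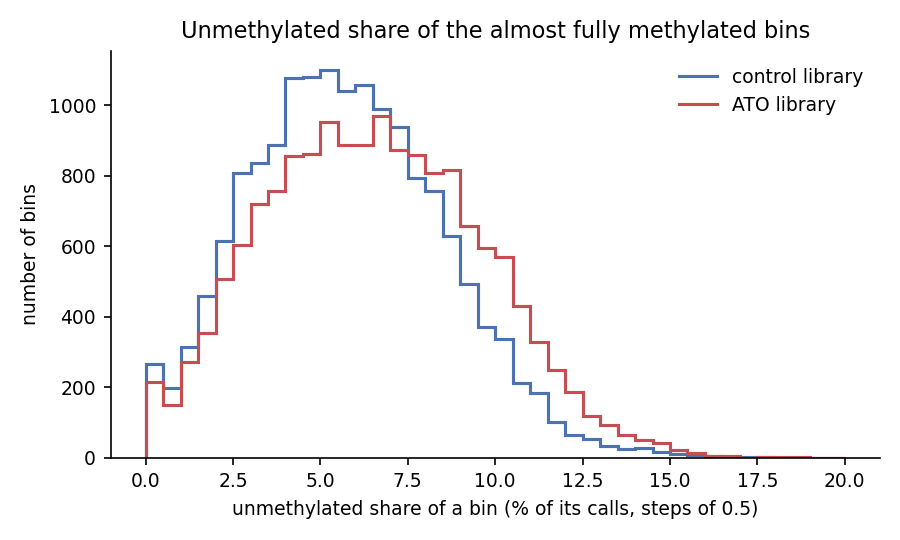
Number of member bins (y axis) by unmethylated share of the bin in percent of its calls (x axis, steps of 0.5) in the control library (blue) and the ATO library (red). The ATO outline lies to the right of the control outline, with medians of 6.42% and 5.63%, and both fall off near the limit that the selection sets.

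Single bins moved in both directions. The share was higher in the ATO library in 9444 bins (59.8%) and lower in 39.9%, against 57.7% higher among all autosomal bins with 5 or more cytosines. The difference of a bin had a median of 0.69 points, an SD over bins of 3.43 points and a 5th to 95th percentile range from -4.69 to 6.42 points, so the common shift was small beside the spread between bins. A share at least 1.5 times higher in the ATO library was seen in 4393 members (27.8%), and one at least 1.5 times higher in the control in 15.1%. Over all bins these percentages were 11.8 and 5.28, but a bin that is almost fully unmethylated in both libraries cannot differ by that ratio. CpG-poor bins between 80 and 90% had 25.6 and 10.6%. In these counts, fewer than 3 unmethylated calls in the lower library were taken as 3. The mean squared difference between the libraries, in units of its binomial error, was 3.19 over the members. Counting error alone would give a value close to 1 if calls were independent. Calls on the same read are not, which can raise this value by an amount not measured here.

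How the members were selected bears directly on this ratio. Bins selected on the control level alone had a ratio of 1.41, and bins selected on the ATO level alone had one of 0.884, with the lower share in the ATO library. Either choice selects on 1 of the 2 libraries compared, and the main rule on the mean of both. How far the selection accounts for any of these ratios was not tested. In a further variant every other cytosine of a bin served for the selection and the remaining cytosines for the measurement. The ratio was then 1.12 over 16378 bins, the same to 2 decimals as for the members. Both sets of cytosines lie in the same 500-bp bin and can share reads. This split therefore cannot show that the ratio is free of the selection. It also lowered the percentage of bins with the larger share under ATO, to 56.8% from 59.8%. Among all autosomal bins with 5 or more analysed cytosines, without a split, this percentage was 57.7%. Within 2000 bp of an unmethylated CpG-dense bin, described below, the ratio was 1.09 in place of 1.13, and farther away it stayed at 1.12.

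Calls that had no part in the rule were available at cytosines of the member bins with under 10 reads in at least 1 library. A read that gave such a call may also cover analysed cytosines of the same bin, so these calls are not independent of the selection. Of the left-out cytosines, 37780 were the opposite strand of a CpG that was analysed. Their share was 6.13% in the control library and 6.56% in the ATO library, with a ratio of 1.07 (1.03 to 1.11). The ATO library was again the higher one, by a ratio smaller than the 1.12 of the members. Of these cytosines 32196 lay on the forward strand, where the analysed cytosines had a ratio of 1.09. Another 55409 cytosines belonged to CpGs analysed on neither strand. There the share was 17.8% in the control library and 18.8% in the ATO library, 3.00 and 2.82 times the share of the analysed cytosines, with a ratio of 1.06 (1.04 to 1.07). On the reverse strand these shares were 20.1 and 21.2%, and on the forward strand 8.96 and 9.75%. The analysed cytosines were selected for a high level and these were not. How far this accounts for the higher share was not tested.

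Bins with only 1 to 4 analysed cytosines were also outside the rule. Those adjacent to a member, 7979 in number, had unmethylated shares of 14.1% in the control library and 15.7% in the ATO library, a ratio of 1.11 (1.10 to 1.12). Among all 179564 autosomal bins with 1 to 4 cytosines the shares were 32.8 and 35.1%. DNA beside a member was therefore more methylated than other DNA with as few analysed cytosines, in each library, though less so than the members.

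The members' ratio was next set beside that of CpG-poor bins at other levels. Bins between 80 and 90%, the class next below, had shares of 13.8% in the control library and 15.7% in the ATO library and a ratio of 1.13. Between 60 and 80% the ratio was 1.12, with shares of 27.7 and 30.9%. Among the members the difference in points was smaller than in those classes, at 0.74 against 1.86 and 3.19, while the ratio was 1.12 beside 1.13 and 1.12. Between 40 and 60% the ratio was 1.08, and below 10% the unmethylated shares were 95.67 and 95.66%. A ratio of unmethylated shares must approach 1 where almost all DNA is unmethylated. The odds ratio, which has no such limit, was 1.13 in the members, 1.16 between 80 and 90%, 1.17 between 60 and 80% and 1.16 between 40 and 60%. It was lower in the less methylated classes, at 1.09 between 20 and 40%, 1.03 between 10 and 20% and 0.997 below 10%.

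**Figure D2:**
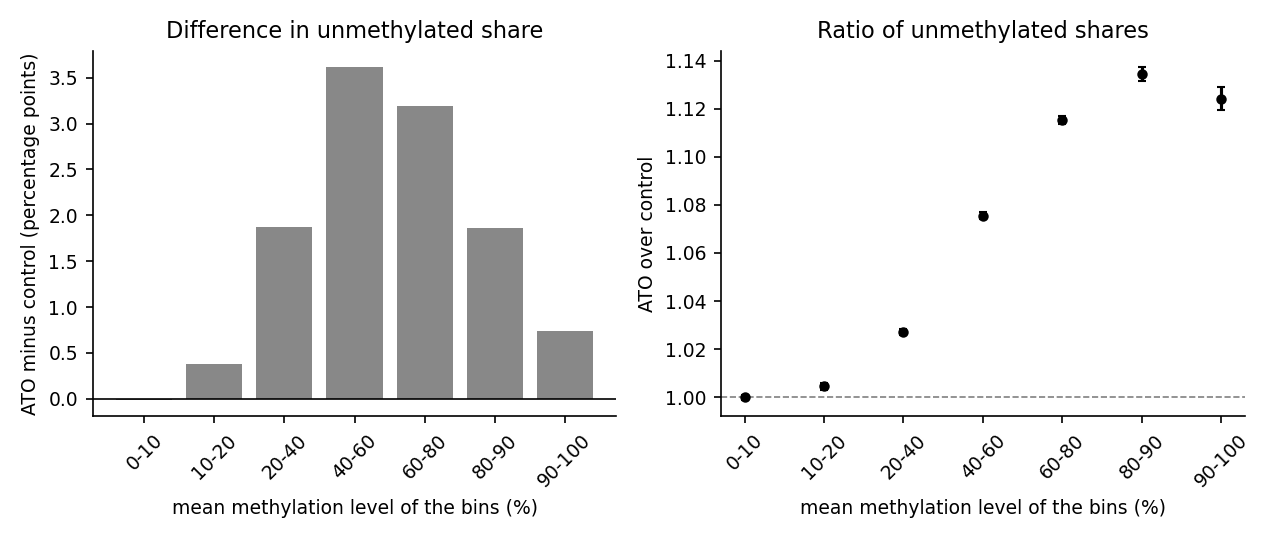
CpG-poor bins by mean methylation level of both libraries in percent (x axis). Left, bars give the ATO minus control difference in unmethylated share in percentage points. Right, points give the ratio of the shares with exact 95% intervals for counting error, and the dashed line marks a ratio of 1. The difference is widest at 40 to 60%, with 3.61 points, and is 0.74 points in the members (90 to 100%), while the ratio lies between 1.12 and 1.13 in the 3 highest classes.

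The members themselves were graded by level. In the 4257 bins between 90 and 92% the shares were 8.42% in the control library and 9.53% in the ATO library, with a ratio of 1.13. Between 92 and 94% they were 6.56 and 7.46%, with a ratio of 1.14. Between 94 and 96% they were 4.79 and 5.30%, with a ratio of 1.11. Between 96 and 98% they were 3.01 and 3.25%, with a ratio of 1.08. The 669 bins at 98% and above had 1.41 and 1.55%, a ratio of 1.10 (1.04 to 1.17), and 48.4% of them were higher in the ATO library, 44.5% lower and 47 bins equal. Over all autosomal bins with 5 or more analysed cytosines 57.7% were higher in the ATO library. The pooled ATO share was the higher one in each of these level classes of members, by 1.11 points in the lowest and 0.14 points in the highest.

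Some bins had no unmethylated call at all. There were 247 such members in the control, 197 in the ATO library and 46 in both. These 46 bins had 110 to 340 calls over both libraries, which allows a share of up to 0.882% in the best covered and up to 2.73% in the least covered of them.

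Among the members, which the rule holds to a mean share of at most 10%, the share differed little by number of analysed cytosines. Members with 5 to 7 cytosines had 5.93% in the control library and 6.70% in the ATO library, those with 8 to 10 had 5.92 and 6.69%, and those with 11 to 14 had 5.93 and 6.55%. The ratios were 1.13 (1.12 to 1.14), 1.13 (1.12 to 1.14) and 1.11 (1.10 to 1.12). By single numbers the ratio ran from 1.08 in the 386 bins with 14 cytosines to 1.14 in the 2218 bins with 7, without a steady order: 5 cytosines gave 1.11 and 12 gave 1.13. What changed with number was how often a CpG-poor bin was a member. Of bins with 5 cytosines 16.7% were members, of those with 9 12.4% and of those with 14 10.1%.

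Methylated CpG-dense bins, with at least 15 cytosines and a mean of at least 90%, had lower unmethylated shares than the members in both libraries. The 1997 such bins had unmethylated shares of 5.04% in the control library and 5.48% in the ATO library and a ratio of 1.09 (1.08 to 1.10). In 58.6% of them the ATO share was the higher, against 57.7% of all autosomal bins with 5 or more analysed cytosines.

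Position was measured as the gap to the nearest unmethylated CpG-dense bin, with at least 15 cytosines and a mean under 10%, the pattern of a CpG island. The autosomes held 27895 of these. Members were scarce beside them: within 2000 bp of one, 1005 of 30094 CpG-poor bins (3.34%) were members, against 15.3% from over 2000 to 10000 bp, 17.7% from over 10000 to 50000 bp and 19.8% beyond. Members near an island-like bin were also slightly less methylated. Within 2000 bp the share was 6.32% in the control library and 7.15% in the ATO library, and beyond 50000 bp it was 5.87 and 6.56%.

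The ratio between libraries differed little between the distance classes. It was 1.13 (1.11 to 1.15) within 2000 bp, 1.15 (1.14 to 1.16) from over 2000 to 10000 bp, and 1.12 (1.11 to 1.13) in both of the farther classes. In points the difference was 0.83, 0.89, 0.71 and 0.69. Among bins with a mean of at least 95% the ratio was 1.15 within 2000 bp and 1.09 farther away. Partly methylated CpG-poor bins, between 20 and 80%, were ordered differently: their difference was 0.55 points within 2000 bp, 2.99 and 3.65 points in the middle classes and 4.32 points beyond 50000 bp, with odds ratios of 1.02, 1.13, 1.16 and 1.19. The members' odds ratios in the same order were 1.14, 1.16, 1.13 and 1.13. Within 2000 bp the odds ratio was thus 1.02 in partly methylated bins and 1.14 in the members, but gaps inside this class were not matched. The members' ratio in this class was 1.09 where every other cytosine served for the selection and the rest for the measurement. This contrast between the classes was not tested. Only 30 members directly adjoined an island-like bin, with shares of 6.96 and 7.19% and a ratio of 1.03 (0.94 to 1.13), too few calls to place them.

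Distance and number of cytosines were also crossed. In the 12 classes that result the ratio ran from 1.10 to 1.17 and was above 1 in each. The highest, 1.17 (1.14 to 1.21), was in the 227 bins with 8 to 10 cytosines within 2000 bp. The lowest, 1.10 (1.08 to 1.11), was in the 863 bins with 11 to 14 cytosines at over 10000 to 50000 bp.

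**Figure D3:**
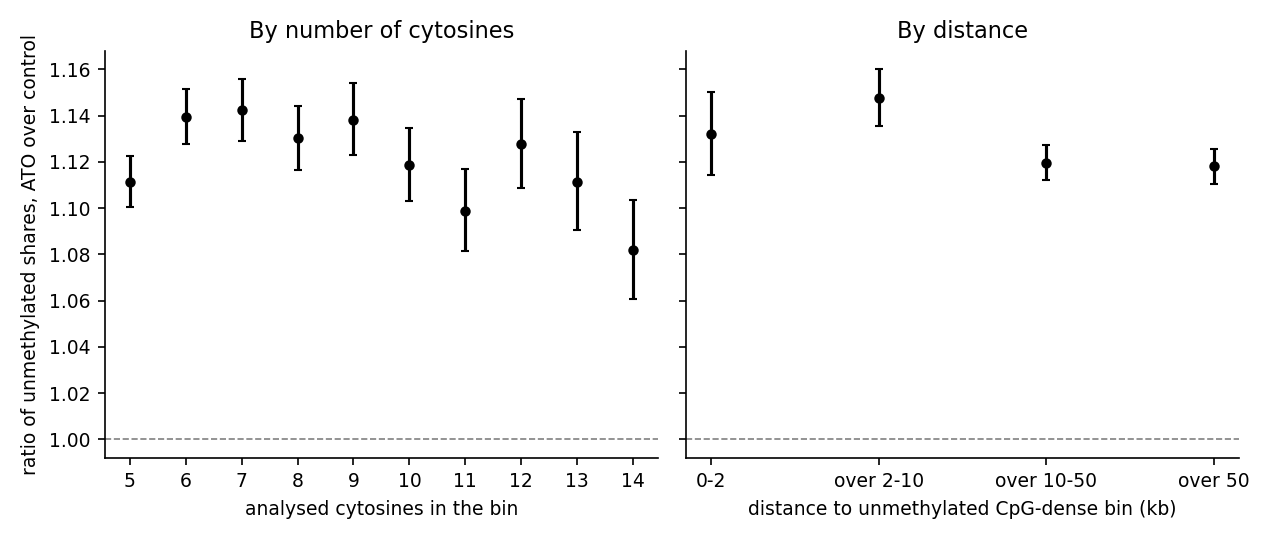
Ratio of the unmethylated share in the ATO library to that in the control library (y axis), with exact 95% intervals for counting error, by number of analysed cytosines in the bin (left) and by distance in kb to the nearest unmethylated CpG-dense bin (right). The dashed line marks a ratio of 1, and all points lie between 1.08 and 1.15.

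Each of the 19 autosomes had the higher share in the ATO library. The ratio ran from 1.10 on chromosome 16 to 1.16 on chromosome 9, with a median of 1.13 and an SD over chromosomes of 0.017. In the control the share ran from 5.65% on chromosome 3 to 6.23% on chromosome 7, and in the ATO library from 6.30% on chromosome 18 to 7.06%, again on chromosome 7. The lowest ATO value was above the highest control value. Chromosome values of other bins are not given here, so this is not shown to be particular to the members. Among all autosomal bins with 5 or more analysed cytosines 57.7% had the higher share in the ATO library. CpG-poor bins between 80 and 90% had a ratio of 1.13. All 18 pairs of neighbours in the order of ratios had overlapping counting intervals, but the interval of chromosome 9 (1.14 to 1.18) lay above those of chromosomes 1, 2, 6, 10, 13 and 16. Chromosomes are parts of the same library and not replicates. Members made up 11.8% of CpG-poor bins on chromosome 11 and 16.3% on chromosome 16, the extremes.

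**Figure D4:**
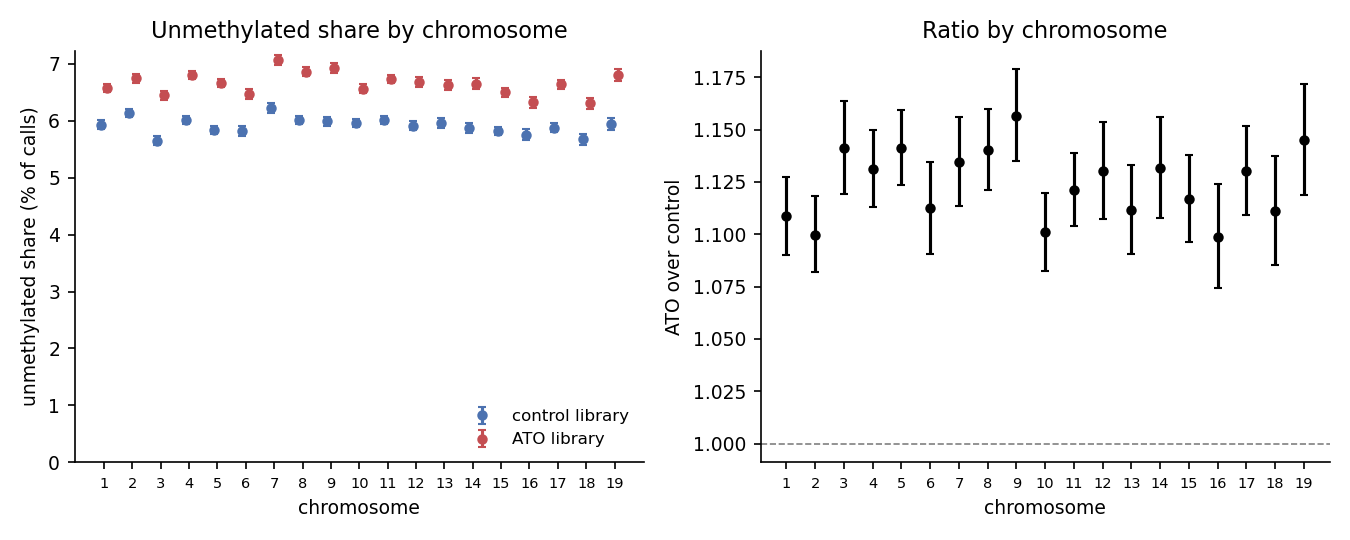
Left, unmethylated share of the members in percent of calls (y axis, from 0) on each autosome (x axis) in the control library (blue) and the ATO library (red). Right, the ratio of the shares, with a dashed line at 1. Bars are exact 95% intervals for counting error. Control shares lie between 5.65 and 6.23% and ATO shares between 6.30 and 7.06%.

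Within the members the share differed with the spacing of CpGs. Spacing was taken from each analysed CpG to the nearest other CpG listed in either library, and the rule did not use it. CpGs with a neighbour within 2 to 5 bp had a share of 4.70% in the control library and 5.17% in the ATO library. At 11 to 20 bp the shares were 5.82 and 6.54%, and at 41 to 80 bp 7.40 and 8.43%. CpGs with no neighbour within 80 bp had 7.83 and 8.86%. Both libraries rose by step over all 6 spacing classes, and isolated CpGs had 1.67 and 1.72 times the share of the closest pairs. The ratio between libraries was 1.10 (1.09 to 1.11) at 2 to 5 bp and lay between 1.12 and 1.14 in the other classes.

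**Figure D5:**
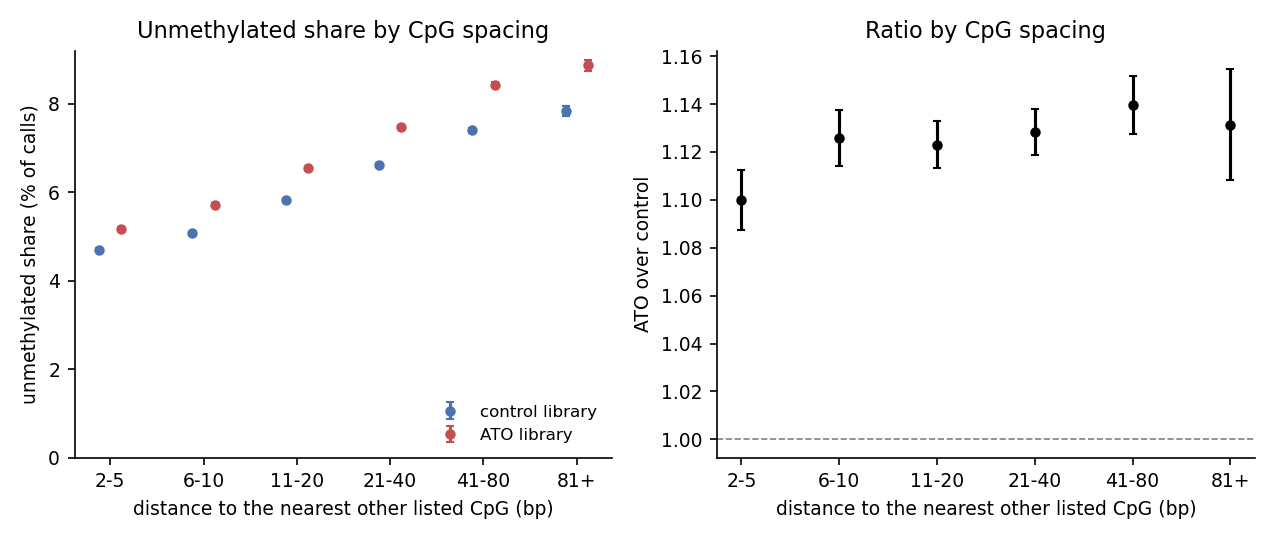
Analysed cytosines of the members by distance in bp from their CpG to the nearest other listed CpG (x axis). Left, unmethylated share in percent of calls in the control library (blue) and the ATO library (red), y axis from 0. Right, ratio of the shares, with a dashed line at 1. Bars are exact 95% intervals for counting error. The control share rises from 4.70% at 2 to 5 bp to 7.83% at 81 bp and more.

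The unmethylated calls were spread over many cytosines. In the control 32.2% of the 117588 cytosines had no unmethylated call, and in the ATO library 28.9%. In the median bin the cytosine with the most unmethylated calls held 35.3% of them (quartiles 27.8 and 45.2%), and in 19.4% of bins 1 cytosine held 50% or more. Cytosines with a mean share over 5 and up to 20% gave most of the unmethylated calls, 67.5% in all. A few cytosines stood apart inside otherwise methylated bins: 342 had a mean share over 40 and up to 80%, and 105, in 103 bins, had one over 80%. The latter read as unmethylated in both libraries, at 99.0 and 98.9%, on only 1610 calls in the control library and 1665 in the ATO library. The rule admits such a cytosine only where it holds a small part of the calls of its bin. Without all cytosines over 20% the shares were 5.35 and 6.01%, and the ratio was 1.12 as before.

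Over all analysed cytosines the ratio was higher on the reverse strand than on the forward strand, and the intervals did not overlap. The values were closer at CpGs analysed on both strands. Reverse-strand cytosines had shares of 5.96% in the control library and 6.71% in the ATO library, a ratio of 1.13 (1.12 to 1.13). Forward-strand cytosines had 5.64 and 6.12%, a ratio of 1.09 (1.07 to 1.10). At the 6244 CpGs analysed on both strands the reverse strand had 5.75 and 6.36% and the forward strand 5.91 and 6.47%, with ratios of 1.11 and 1.09 and overlapping intervals. At the same CpGs, then, the strands differed by 0.15 points within the control and 0.11 points within the ATO library, and the libraries by 0.56 points on the forward and 0.61 points on the reverse strand.

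Depth and conversion were read beside these values. By the lower coverage of a bin, the ratio was 1.09 (1.06 to 1.12) in 1799 bins with under 20 reads per cytosine, 1.14 from 20 to 40 and from 40 to 80, 1.11 from 80 to 160 and 1.07 (1.05 to 1.09) in 197 bins above. The share itself was 4.86% in the shallowest class of the control, 6.17% between 80 and 160 reads and 5.48% in the deepest class, and in the ATO library it was 5.29, 6.86 and 5.87%. In unmethylated CpG-dense bins, where a C call can come from failed conversion, 2.84% of calls were methylated in the control library and 2.85% in the ATO library. Those bins were chosen for a low level, and failed conversion, read errors and methylated DNA were not separated in that value.

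Members clustered along the genome. Where the next 500-bp bin had at least 5 analysed cytosines (3505 cases), it was itself a member in 40.9%, and its median level was 89.96%. At a distance of 1000 bp 23.7% were members and at 10000 bp 12.03%. These are percentages of bins with at least 5 analysed cytosines, including those with more than 14. Over all such autosomal bins there were 15801 members among 149544. The median level fell from 89.96% in the next bin to 57.8% at 10000 bp. Of the members 17.4% adjoined another, mostly in pairs. The longest run, on chromosome 2 from 172979001 to 172982000 (mm9), held 6 members and 60 cytosines over 3000 bp. Its share was 5.65% in the control library (4.82 to 6.58) and 6.94% in the ATO library (6.03 to 7.93), a ratio of 1.23 (0.99 to 1.52). Of its bins 4 were higher in the ATO library and 2 lower, and shares ranged from 3.69 to 8.07% in the control and from 3.78 to 10.3% under ATO.

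The bins with the widest differences were taken from 9061 members with 40 to 200 reads per cytosine in both libraries. Being members, they can differ only where 1 library is nearly fully methylated. At chromosome 6, 97478501 to 97479000, the share was 0.922% in the control library (0.11 to 3.29) and 18.0% in the ATO library (13.4 to 23.4) over 5 cytosines, 5 of them higher in the ATO library. At chromosome 10, 69565001 to 69565500, it was 2.27 and 16.2%, and at chromosome 13, 38221501 to 38222000, 2.77 and 16.4%. In the opposite direction the widest difference was smaller than that on chromosome 6. The others named were larger than those on chromosomes 10 and 13. At chromosome 4, 129211001 to 129211500, the control had 17.2% (13.9 to 20.99) and the ATO library 1.69% (0.81 to 3.08) over 7 cytosines, of which 0 were higher in the ATO library. At chromosome 7, 103850501 to 103851000, the shares were 16.3 and 1.61%, and at chromosome 1, 133077001 to 133077500, 16.2 and 1.69%. No mm9 genome or gene annotation was used here, so neither the sequence nor the gene context of these bins is given.

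The limit of 90% cut through a continuous range. Just inside it, at a mean of 90%, were bins on chromosome 4, 138901001 to 138901500 (levels of 94.3% in the control library and 85.7% in the ATO library), and chromosome 5, 124972501 to 124973000 (92.5 and 87.5%). Just outside, at 89.9996 and 89.9991%, were a bin on chromosome 2, 30615001 to 30615500 (91.9 and 88.1%), and another on chromosome 1, 38372001 to 38372500 (83.9 and 96.1%).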

How the data were processed

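Per the labels' protocols, hippocampal DNA was enriched with the SureSelectXT Mouse Methyl-Seq kit, bisulfite-treated and sequenced on a NovaSeq. Alignment and calling used Bismark 0.19.0 and Bowtie2 on mm9, after bcl2fastq, per the submitters' processing notes. How reads were trimmed and whether duplicates were removed is not given in the sources used here. Per the file headers, the deposited tables give for every listed CpG cytosine its strand, its coverage as a count of C and T calls, and C and T as percent of that count. Unmethylated calls were recovered as coverage minus coverage times percent C, rounded.

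Of 7623441 autosomal cytosines listed in either library, 2271297 had at least 10 reads in both and were analysed, with 122434351 calls in the control library and 133565267 in the ATO library. Shares are sums of calls. The interval of a share is Clopper-Pearson, and that of a ratio is the same interval on the ATO part of the unmethylated calls, scaled by coverage. A share at 0 was given the limit of 3 counts. The calculation was tested on simulated data (Python 3.11.15, pandas 2.3.3, NumPy 2.4.6, SciPy 1.17.1). The members, classes and alternatives were chosen with earlier results of these data known. Named bins are the 3 widest differences in each direction at 40 to 200 reads per cytosine, the longest run and the bins nearest to the limit. The 9 alternatives vary coverage, bin size, level, weighting, strand and the selection of members.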

Additional observations from a re-analysis of the deposited data

How the results depend on the processing

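The 6 main values were computed again under 9 other settings, giving 53 further values: 29 stayed within the counting interval of the reported value, 18 moved outside it with the same direction, and 6 reversed. The way members are selected had the largest effect. With selection on the control library alone the ratio over all bins was 1.41, and it was 1.38 within 2000 bp of an island-like bin, 1.41 farther away, 1.46 with 5 to 7 cytosines and 1.32 with 11 to 14; 70.8% of bins were higher in the ATO library. With selection on the ATO library alone these values were 0.884, 0.861, 0.886, 0.852, 0.931 and 47.7%, all reversed. Both settings select on 1 of the libraries compared, and how far this accounts for each value was not tested. With selection on every other cytosine and measurement on the rest, the ratio near island-like bins was 1.09 and 56.8% of bins were higher. At a mean level of at least 95% the ratio was 1.09 in all bins, 1.15 near island-like bins, 1.09 in remote bins, 1.10 with 5 to 7 cytosines and 1.07 with 11 to 14, and 55.7% of bins were higher. Over all autosomal bins with 5 or more analysed cytosines, at the main settings, 57.7% were higher. The ratio over all bins was 1.12 at a coverage minimum of 20, 1.13 at a coverage of at most 200 reads and 1.13 with each bin weighted equally, and in remote bins it was 1.13 under both of the last. The cause of these smaller changes was not tested. Depth limits single bins: with no unmethylated call in either library, the least covered member may still hold a share of up to 2.73%. No paired analysis was possible because each group has 1 library.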

Other observations

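Chromosome X was outside the rule. Under the same thresholds 311 of its 1784 CpG-poor bins (17.4%) had a mean level of at least 90%. Their unmethylated share was 5.68% in the control (exact interval 5.53 to 5.85) and 6.19% in the ATO library (6.03 to 6.34), with a ratio of 1.09 (1.05 to 1.13), and 55.6% of them were higher in the ATO library. Among all autosomal bins with 5 or more analysed cytosines this percentage was 57.7%. The median bin of chromosome X had 28.3 and 32.3 reads per cytosine. The value on X lay just below the lowest autosomal ratio of 1.10, and the intervals overlapped.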
